A study of Mus musculus with 9 samples.

Results

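The RNAs of 10 genes for proteins that meet antisense oligonucleotides (ASOs) were followed in mouse spinal cord. They were Sfpq, Nono and Pspc1, whose proteins build paraspeckles, Ssb, Npm1, Hmgb1, Hsp90ab1, Xrcc5 and Xrcc6, whose proteins are known to bind phosphorothioate oligonucleotides, and Xrn2, the nuclear exonuclease that removes cleaved RNA. The genes were chosen by function, by symbol, and make up 10 of the 14831 genes in the authors' table. Wild-type female C57Bl/6 mice aged 10 weeks received a 10 µl injection into the right lateral ventricle, and the spinal cord was collected 2 weeks later for strand-specific RNA sequencing. The saline group (3 libraries) received no oligonucleotide. The control ASO group (3 libraries) received 500 µg of oligonucleotide #456835, and the C9orf72 ASO group (3 libraries) received 500 µg of oligonucleotide #571883, directed at mouse C9orf72. The design asks what loss of C9orf72 function does in this tissue. The libraries are of whole spinal cord, in which fewer cells of a type and less RNA per cell cannot be told apart. Nothing in the labels ties each library to an animal of its own, so that p-values measure the spread between these samples, which may be technical.

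An ASO of the RNase H kind pairs with its target RNA, the RNase H1 enzyme cuts the RNA in the hybrid, and nucleases clear the pieces, with XRN2 acting from the 5′ end of the downstream piece in the nucleus. Phosphorothioate backbones replace an oxygen of the phosphate with sulphur, which protects the strand from nucleases and makes it bind many proteins. SFPQ, NONO and PSPC1 are the mammalian DBHS proteins (Drosophila behaviour and human splicing). They pair with one another and assemble on the long noncoding RNA Neat1 into paraspeckles, nuclear bodies that hold back certain RNAs and proteins. The backbone chemistry of both oligonucleotides is not given in the sources used here.

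Values are RPKM, reads per kilobase of transcript scaled to library depth, so that levels can be compared between genes. Depth, read from the step between low values, was 90300000 to 123900000 reads per library. Each of the 10 genes was above the 0.5 RPKM floor of the table in each library, and each passed the filter on low values. C9orf72 (ENSMUSG00000028300), the targeted gene, stood at 10.5, 11.4 and 11.5 RPKM with saline, at 11.2, 11.7 and 10.6 RPKM with control ASO and at 2.68, 3.40 and 3.12 RPKM with C9orf72 ASO. It fell by 1.84 on the log2(RPKM + 0.1) scale relative to control ASO (limma, SE 0.08, adjusted p = 1.83e-06), and all 3 C9orf72 ASO libraries were below the other 6. The listed markers of spinal cord cell types were all present (18 of 18 in the table), with summed levels of 7992 to 9263 RPKM per library over the 3 groups, among them Snap25 of neurons (at least 1483 RPKM) and Hoxc8 of the trunk spinal cord (at least 60.5 RPKM). Of 16 markers of other tissues, 10 were in the table. Their summed level was 440 to 483 RPKM with saline, 367 to 1446 RPKM with control ASO and 384 to 632 RPKM with C9orf72 ASO. The top value, in 1 control ASO library, came mostly from the haemoglobin gene Hba-a1 (1056 RPKM, against 255 RPKM in the lowest library). The part of blood or other tissue in the values of the 10 genes was not tested.

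The 10 RNAs spanned 2 orders of magnitude. Hsp90ab1, which encodes the constitutive cytosolic HSP90, was the most abundant, with 598 to 702 RPKM over the 9 libraries (rank 22 of 14831 genes by mean level). Next came Npm1 (118 to 149 RPKM), Ssb (68.6 to 85.6 RPKM), Sfpq (64.4 to 78.9 RPKM), Hmgb1 (47.3 to 59.8 RPKM), Nono (41.6 to 46.1 RPKM), Pspc1 (16.0 to 18.5 RPKM), Xrn2 (12.2 to 14.4 RPKM), Xrcc5 (10.0 to 11.9 RPKM) and Xrcc6 (5.46 to 6.31 RPKM). Ssb and Sfpq were the only neighbours in this order whose ranges overlapped, though Ssb was above Sfpq in 9 of 9 libraries; the remaining neighbours were separated in each library. Xrcc6 lay below the median of all genes, and the other 9 lay above it. Within groups the coefficient of variation was lowest for Sfpq and highest for Hmgb1 (7.46%). The least covered value, that of Xrcc6 in 1 library, rested on 493 reads per kilobase.

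**Figure D1:**
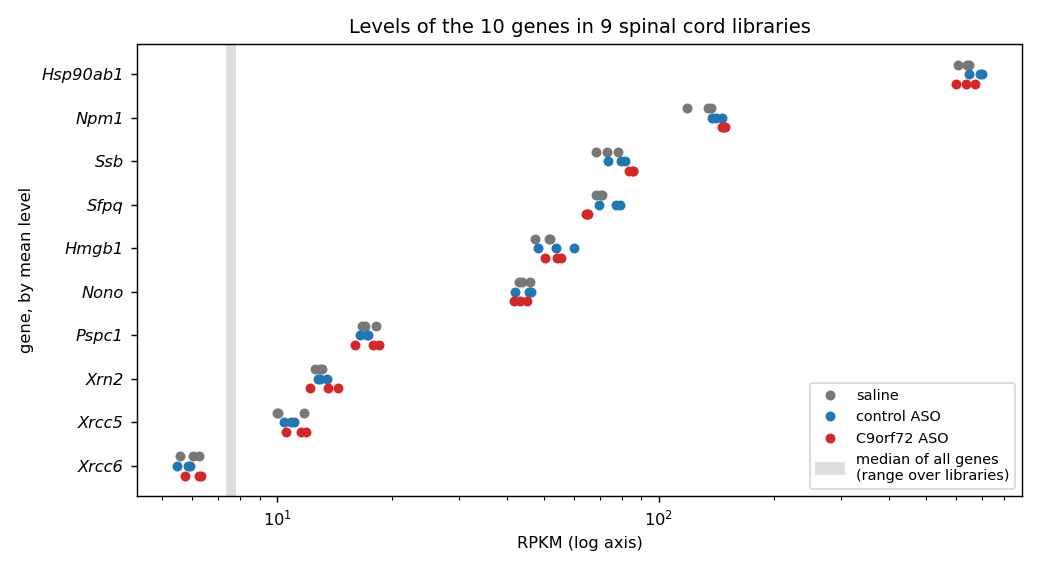
RPKM (log axis) of each gene in the 9 libraries, 1 point per library, coloured by group, with the genes ordered by mean level and a grey band for the median of all genes in each library. Hsp90ab1 stands at 598 to 702 RPKM and Xrcc6 at 5.46 to 6.31 RPKM, and groups differ far less than genes do.

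No gene of the 10 passed the threshold (Benjamini-Hochberg adjusted p under 0.05 over 14430 genes tested, limma) in any of the 4 comparisons. C9orf72 ASO against control ASO asks about lowering of the target with an oligonucleotide on both sides. There 0 of 10 passed, where 0.0693% of all genes tested did (0.0347% higher and 0.0347% lower). An unadjusted p under 0.05 was found for 1 of 10, against 14.1% of all genes. In 2 of 10 the libraries did not overlap (22% of all genes), with Ssb higher (10.1% of all genes) and Sfpq lower (11.8% of all genes). Control ASO against saline asks about an oligonucleotide that does not target the gene. There 0 of 10 passed (0.00693% of all genes, all of it higher, with 0% lower), and 0 of 10 had an unadjusted p under 0.05 (5.35%). Npm1, higher, was the 1 of 10 without overlap, against 10.3% of all genes (3.16% higher and 7.15% lower). C9orf72 ASO against saline gave 0 of 10 (0.0693% of all genes, 0.0347% in either direction), with 2 at an unadjusted p under 0.05 (14%). In 3 of 10 the libraries did not overlap (18%), Ssb and Npm1 higher (5.61%) and Sfpq lower (12.4%). Both ASO groups against saline, the comparison nearest to exposure to any oligonucleotide, gave 0 of 10 (0.0139% of all genes, all of it lower), with 2 at an unadjusted p under 0.05 (8.42%). Npm1, higher, was the 1 without overlap, against 3.19% of all genes (0.929% higher and 2.26% lower). These comparisons share libraries and are not independent of one another.

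The intervals bound what could have been missed. Over the 4 comparisons the 95% intervals of the fold on the log2(RPKM + 0.1) scale reached no lower than 0.788 (Sfpq, C9orf72 ASO against control ASO) and no higher than 1.28 (Ssb, C9orf72 ASO against saline), without adjustment for the number of genes. The median log2 difference of the 10 genes was 0.03 against the control ASO, where that of all genes was -0.014. It was 0.06 for the control ASO against saline (all genes -0.020), 0.05 for the C9orf72 ASO against saline (all genes -0.027) and 0.05 for both ASO groups against saline (all genes -0.023).

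**Figure D2:**
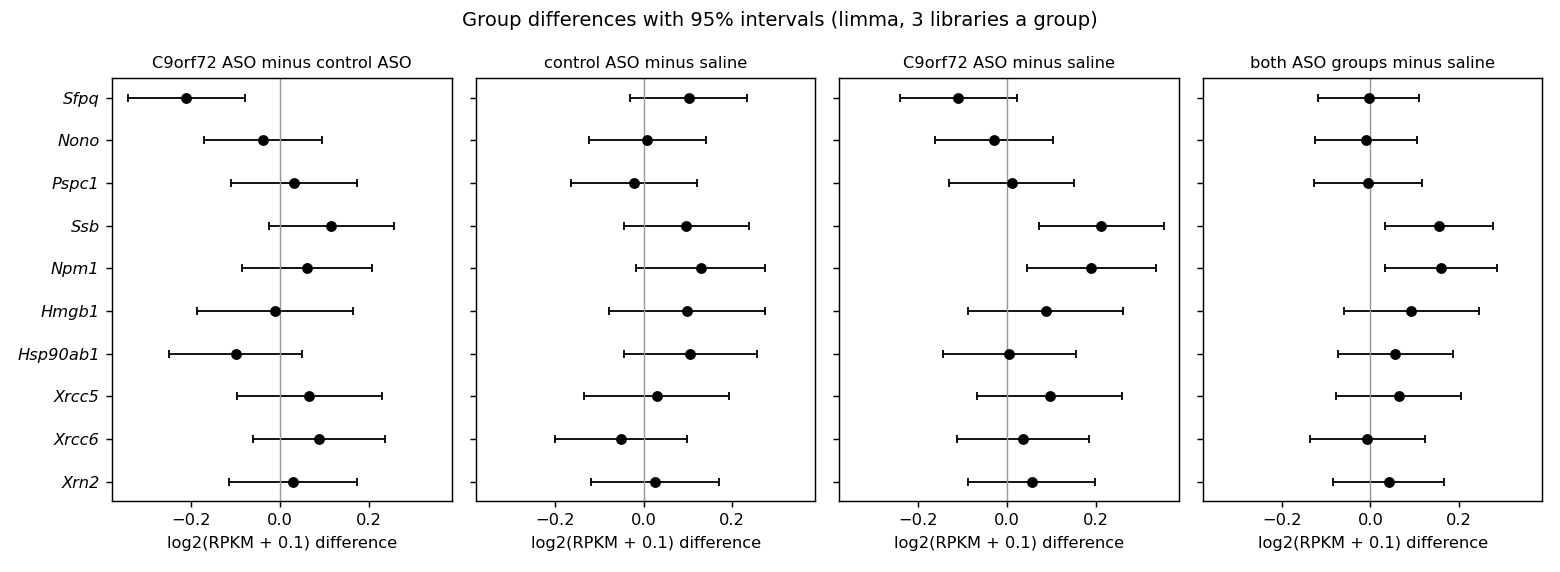
Differences in log2(RPKM + 0.1) between groups (x axis) for each gene (y axis) in the 4 comparisons; points are limma estimates and bars 95% intervals, unadjusted for the number of genes. Sfpq lies to the left of 0 against the control ASO, Ssb and Npm1 lie to the right in the comparisons of the C9orf72 ASO and of both ASO groups with saline, and no gene passed the adjusted threshold.

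Among the DBHS genes, Sfpq (ENSMUSG00000028820), which encodes a splicing and transcription factor and essential paraspeckle protein, had the largest difference of the 10 against the control ASO. Its level was 71.1, 68.4 and 70.6 RPKM with saline, 69.6, 77.2 and 78.9 RPKM with control ASO and 64.4, 65.3 and 64.9 RPKM with C9orf72 ASO. All 3 C9orf72 ASO libraries lay below the other 6, while saline and control ASO overlapped. The share of all genes set apart in this way from both other groups was not counted, for this gene or for those below. The means were 64.9 ± 0.466 RPKM (SD, n = 3) and 75.3 ± 4.95 RPKM after the C9orf72 and the control ASO, a log2 difference of -0.21 (SE 0.06, 95% interval -0.34 to -0.08, limma adjusted p = 0.239). Against saline (70.0 ± 1.43 RPKM) it was -0.11 (SE 0.06, adjusted p = 0.437, limma), and the control ASO stood at 0.10 against saline (SE 0.06, adjusted p = 0.794, limma). The differences of both ASO groups from saline were of opposite sign, and their mean was -0.0039 (95% interval -0.12 to 0.11).

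Nono (ENSMUSG00000031311), the DBHS partner of SFPQ in transcription and splicing, kept to a narrow band of 43.1 to 45.9 RPKM with saline, 41.9 to 46.1 RPKM with control ASO and 41.6 to 45.3 RPKM with C9orf72 ASO. Its groups overlapped in each comparison, and its log2 differences lay between -0.04 and 0.0089. Pspc1 (ENSMUSG00000021938), the least abundant of the 3, ran from 16.7 to 18.1 RPKM with saline, 16.5 to 17.3 RPKM with control ASO and 16.0 to 18.5 RPKM with C9orf72 ASO, with log2 differences between -0.02 and 0.03. Against the control ASO the 95% interval of Nono was -0.17 to 0.09 and that of Pspc1 -0.11 to 0.17. The interval of Sfpq, -0.34 to -0.08, overlapped both, though its estimate of -0.21 lay outside them. A difference between the 3 genes in their response was not tested. The ratio of Sfpq to Nono, which no scaling of a library can alter, was 1.55 to 1.61 with saline, 1.51 to 1.85 with control ASO and 1.43 to 1.55 with C9orf72 ASO. The C9orf72 ASO range overlapped that of control ASO and ended just under the lowest saline library. The ratio of Nono to Pspc1 was 2.41 to 2.71, 2.42 to 2.77 and 2.26 to 2.83 in the same order, with full overlap.

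Ssb (ENSMUSG00000068882) encodes the La protein, which binds the uridine-rich ends of new RNA polymerase III transcripts. It stood at 73.2, 68.6 and 78.0 RPKM with saline, at 73.8, 79.7 and 81.4 RPKM with control ASO and at 85.6, 85.3 and 83.5 RPKM with C9orf72 ASO. The 3 C9orf72 ASO libraries were above the other 6, a separation whose share over all genes was not counted, and saline and control ASO overlapped. The mean of 84.8 ± 1.14 RPKM (SD, n = 3) compared with 73.3 ± 4.68 RPKM with saline, a log2 difference of 0.21 (SE 0.06, 95% interval 0.07 to 0.35, adjusted p = 0.232, limma). Against the control ASO (78.3 ± 4.02 RPKM) it was 0.12 (SE 0.06, adjusted p = 0.436, limma), or 0.074 without control ASO replicate 1 and 0.070 with a trend on transcript length removed, and for both ASO groups against saline 0.15 (SE 0.06, adjusted p = 0.575, limma).

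Npm1 (ENSMUSG00000057113) encodes nucleophosmin, an abundant nucleolar chaperone of ribosome assembly. Its values were 134, 118 and 137 RPKM with saline, 138, 141 and 147 RPKM with control ASO and 148, 149 and 146 RPKM with C9orf72 ASO. All 6 libraries with an oligonucleotide were above the 3 saline libraries, by a margin of under 1 RPKM between the nearest pair, and the ASO groups overlapped each other. The log2 difference of both ASO groups from saline was 0.16 (SE 0.06, 95% interval 0.03 to 0.29, adjusted p = 0.575, limma), from 130 ± 10.2 RPKM (SD, n = 3). It was 0.19 for the C9orf72 ASO (SE 0.07, adjusted p = 0.26, limma) and 0.13 for the control ASO (SE 0.07, adjusted p = 0.794, limma), each against saline. Without saline replicate 2, its lowest library, these differences were 0.094, 0.12 and 0.063.

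**Figure D3:**
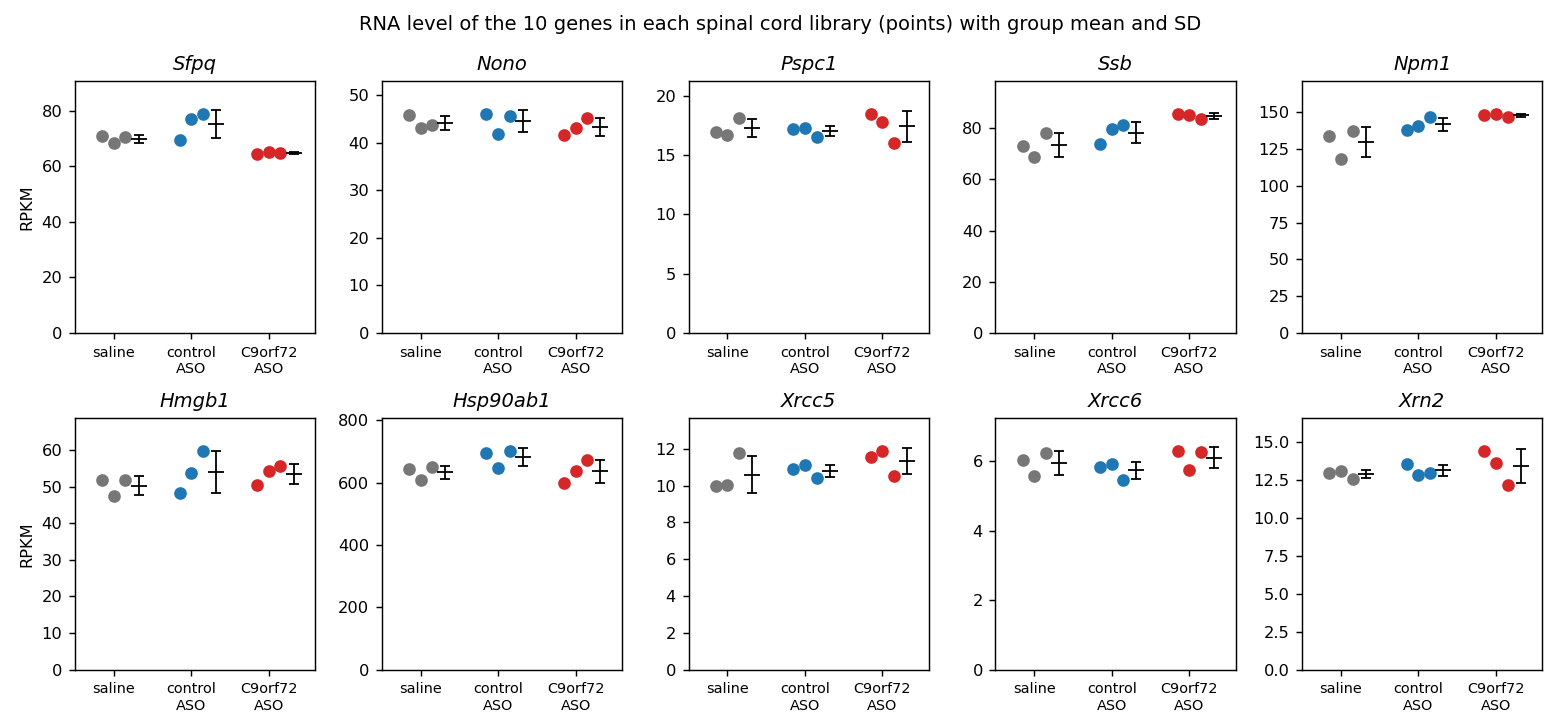
RPKM of each gene (y axes from 0, on separate scales) in the 3 groups (x axis), with 1 point per library and, beside the points, the group mean (line) and SD (bar, n = 3). The 3 C9orf72 ASO points of Sfpq (64.4 to 65.3 RPKM) lie below and those of Ssb (83.5 to 85.6 RPKM) above the other 6, and the saline points of Npm1 (118 to 137 RPKM) lie below the other 6. The share of all genes set apart by the C9orf72 ASO libraries in this way was not counted.

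Ssb and Npm1 also varied together from library to library. Saline replicate 2 was the lowest library of both, and their ratio stayed between 1.72 and 1.87. Across the 9 libraries Pearson's r of their log2 values was 0.935 (exact permutation p = 4.13e-05, two-sided; adjusted p = 0.00186 over the 45 pairs of the 10 genes) and Spearman's rho 0.950 (exact permutation p = 0.000353, adjusted p = 0.0159). With the 2 libraries farthest from the median of Ssb left out r was 0.914, and r of the deviations from the group means was 0.873. The latter value was not particular to this pair. It was 0.883 for Sfpq and Hmgb1, 0.879 for Nono and Hsp90ab1 and 0.854 for Pspc1 and Xrcc5. The permutation shuffled all 9 libraries without regard to group, so that its p also reflects group differences that the genes share. No p was computed for the deviations from the group means. Pairs of genes outside the 10 were not examined. No other pair passed the adjusted threshold; the next, Pspc1 and Xrcc5, had r = 0.793 (exact permutation p = 0.0126, adjusted p = 0.284) and rho = 0.767 (exact permutation p = 0.0214, adjusted p = 0.481). The values of a library share its scaling and RNA quality. With a trend on transcript length removed from each library, r of Ssb and Npm1 was 0.936, and 0.788 for the deviations from group means.

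**Figure D4:**
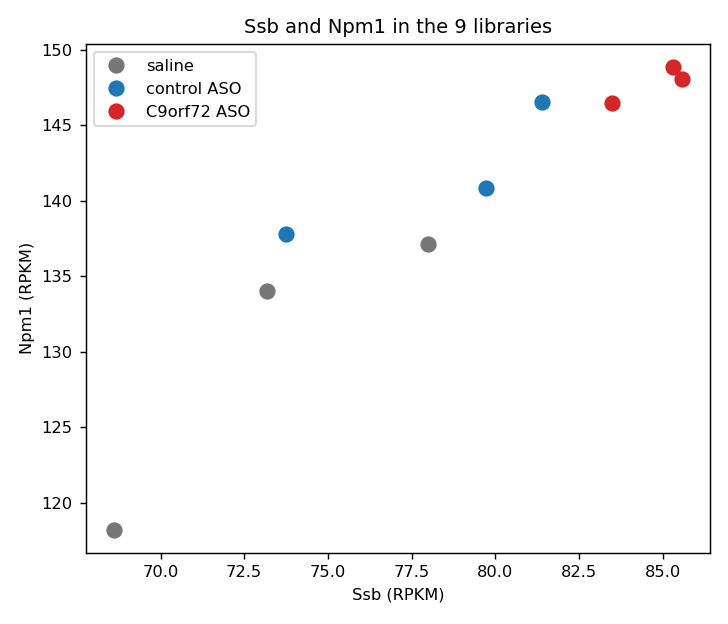
Npm1 (y axis, RPKM) against Ssb (x axis, RPKM), 1 point per library, coloured by group. Saline replicate 2 is lowest on both axes (68.6 and 118 RPKM), and the 3 C9orf72 ASO libraries stand together at 83.5 to 85.6 RPKM of Ssb.

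The promoter windows of Sfpq and Ssb are shown because these genes lay on opposite sides of both control groups in the C9orf72 ASO libraries. How many of all genes lie so was not counted. Windows of 300 bases, 250 before and 50 after the start, were taken from RefSeq (GRCm38.p6) for 8 of the 10 genes; those of Npm1 and Hsp90ab1 were not analysed here. The window of Sfpq is chr4:127021051-127021350 on the plus strand and that of Ssb chr2:69861312-69861611 on the plus strand. Capitals mark matches, on either strand, to the CCAAT box (CCAAT) in Sfpq and to the GC box (GGGCGG) in Ssb; the TATA box TATAAA, the ETS core CCGGAA, the cyclic AMP element TGACGTCA and the E-box CACGTG, searched the same way, had no match in either. The middle 2 of the matches in Sfpq overlap each other.
Sfpq: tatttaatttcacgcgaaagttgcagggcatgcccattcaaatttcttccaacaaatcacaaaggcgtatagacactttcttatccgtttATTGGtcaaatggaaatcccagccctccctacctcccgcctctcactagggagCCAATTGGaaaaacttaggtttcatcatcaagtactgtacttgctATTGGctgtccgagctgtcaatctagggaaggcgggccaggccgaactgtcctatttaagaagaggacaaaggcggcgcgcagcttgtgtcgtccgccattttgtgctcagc
Ssb: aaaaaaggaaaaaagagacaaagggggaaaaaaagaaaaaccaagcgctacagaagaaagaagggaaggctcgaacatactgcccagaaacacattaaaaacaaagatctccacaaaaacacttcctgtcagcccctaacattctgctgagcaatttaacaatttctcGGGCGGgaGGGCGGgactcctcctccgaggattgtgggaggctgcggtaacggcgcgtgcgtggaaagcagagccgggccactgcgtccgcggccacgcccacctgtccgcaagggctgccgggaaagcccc
Sfpq held 4 CCAAT matches, the first at -160 and the last at -62 from the start, and no GGGCGG. Ssb held 2 GGGCGG matches, at -82 and -74, and no CCAAT. Among all 32851 windows of this length 37.4% held any CCAAT and 35.7% any GGGCGG, so that either motif is common. Within the chosen genes CCAAT also occurred in the windows of Nono, Pspc1, Xrcc5, Xrcc6 and Hmgb1. GGGCGG also occurred in those of Pspc1, Xrcc6 and Hmgb1. A link between these motifs and the RNA differences was not tested. Of the 8 genes with a window, TATAAA and TGACGTCA occurred in 0, where 13.6% and 1.79% of all windows held them. A match is a description of the letters and does not show that a factor binds there. The guanine and cytosine content was 48% in Sfpq and 54% in Ssb, against a median of 52.7% over all windows.

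Hmgb1 and Hsp90ab1 had overlapping groups in each comparison. Hmgb1 (ENSMUSG00000066551), a DNA-bending chromatin protein that can signal outside the cell, ran from 47.3 to 51.7 RPKM with saline, 48.2 to 59.8 RPKM with control ASO and 50.3 to 55.5 RPKM with C9orf72 ASO. Its log2 differences lay between -0.01 and 0.10. RefSeq names 12 pseudogenes after Hmgb1, which could take or give reads, so that its level is uncertain. Pseudogenes were searched by such names alone, so that those of the other chosen genes may have been missed. Hsp90ab1 (ENSMUSG00000023944) ran from 609 to 648 RPKM with saline, 648 to 702 RPKM with control ASO and 598 to 672 RPKM with C9orf72 ASO. The control ASO stood at 0.11 against saline (SE 0.07, adjusted p = 0.794, limma) and the C9orf72 ASO at -0.10 relative to control ASO (limma, SE 0.07, adjusted p = 0.518). Control ASO replicate 2 (647.6 RPKM) lay within the saline range. Its stress-inducible paralog Hsp90aa1, whose coding sequence is similar enough that reads may be split, was at 490 ± 25.9 RPKM with saline, 536 ± 23.3 RPKM with control ASO and 507 ± 27.1 RPKM with C9orf72 ASO (SD, n = 3). The control ASO libraries of Hsp90aa1 lay above its saline libraries without overlap (log2 difference 0.13, SE 0.07, adjusted p = 0.794, limma). Of all genes 3.16% were higher without overlap in that comparison. The ratio of Hsp90ab1 to Hsp90aa1 was 1.18 to 1.37 over the 9 libraries.

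Xrcc5 and Xrcc6 encode the Ku80 and Ku70 subunits of the heterodimer that caps broken DNA ends for end joining. Xrcc5 (ENSMUSG00000026187) ran from 10.0 to 11.8 RPKM with saline, 10.4 to 11.1 RPKM with control ASO and 10.5 to 11.9 RPKM with C9orf72 ASO. Xrcc6 (ENSMUSG00000022471) ran from 5.57 to 6.25 RPKM, 5.46 to 5.92 RPKM and 5.75 to 6.31 RPKM in the same order. Both overlapped between all groups. Their log2 differences lay between -0.05 and 0.10, with adjusted p-values from 0.567 to 0.98 (limma). Xrcc5 RNA was 1.66 to 2.07 times as high as that of its partner, a ratio of levels per length whose mean was 1.78 ± 0.114 with saline, 1.88 ± 0.0246 with control ASO and 1.86 ± 0.195 with C9orf72 ASO (SD, n = 3).

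Xrn2 (ENSMUSG00000027433) ran from 12.5 to 13.1 RPKM with saline, 12.8 to 13.5 RPKM with control ASO and 12.2 to 14.4 RPKM with C9orf72 ASO. The C9orf72 ASO libraries covered the range of both other groups. The mean of 13.4 ± 1.14 RPKM (SD, n = 3) was at a log2 difference of 0.03 from the control ASO (95% interval -0.12 to 0.17, adjusted p = 0.861, limma) and 0.06 from saline (95% interval -0.09 to 0.20, adjusted p = 0.749, limma). In the same libraries C9orf72 RNA was at 3.07 ± 0.359 RPKM. Rnaseh1, the gene of the enzyme that cuts the hybrid, ran from 4.37 to 5.08 RPKM with C9orf72 ASO and from 4.83 to 5.33 RPKM with saline. The control ASO libraries, at 4.67 ± 0.0613 RPKM (SD, n = 3), lay below the saline libraries without overlap (log2 difference -0.11, SE 0.07, adjusted p = 0.794, limma). Between the ASO groups its libraries overlapped (log2 difference 0.04, adjusted p = 0.845, limma). Xrn1, the cytosolic counterpart of Xrn2, was at -0.15 relative to control ASO (SE 0.11, adjusted p = 0.527, limma).

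Related genes were described from lists of 8 kinds. None had a member past the threshold in any comparison (limma, adjusted over all genes). Of 21 tested genes of other phosphorothioate-binding proteins, 0 passed in any comparison. An unadjusted p under 0.05 was found for 2 against the control ASO (14.1% of all genes), 1 for the control ASO against saline (5.35%), 4 for the C9orf72 ASO against saline (14%) and 3 for both ASO groups against saline (8.42%). The libraries of 6, 3, 4 and 0 of the 21 did not overlap in these comparisons (22%, 10.3%, 18% and 3.19% of all genes). The list median for both ASO groups against saline was 0.02 (all genes -0.023). Ncl, which encodes the nucleolar protein nucleolin, stood at 113 ± 2.97 RPKM with saline and 127 ± 4.14 RPKM with control ASO (SD, n = 3; log2 difference 0.17, SE 0.06, adjusted p = 0.794, limma), without overlap. After the C9orf72 ASO Ncl was at 121 ± 6.68 RPKM and overlapped both groups. Vars, the valyl-tRNA synthetase gene, was at -0.16 for both ASO groups against saline (SE 0.07, adjusted p = 0.583, limma).

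Of 36 tested genes of other paraspeckle components 0 passed. In the same order of comparisons 1, 0, 4 and 1 had an unadjusted p under 0.05 (14.1%, 5.35%, 14% and 8.42% of all genes), and 3, 3, 5 and 2 had libraries that did not overlap (22%, 10.3%, 18% and 3.19%). The median was -0.06 against the control ASO (all genes -0.014), where 9 of the 36 differences were positive. It was -0.04 for the C9orf72 ASO against saline (all genes -0.027) and -0.01 for both ASO groups against saline (all genes -0.023). The share of positive differences over all genes is not given here, and a shared direction of the list was not tested. Neat1 was not analysed here. Zfp335 was at -0.20 (SE 0.07, adjusted p = 0.569, limma) and Ahdc1 at -0.14 (SE 0.07, adjusted p = 0.627, limma) for both ASO groups against saline. Taf15, an RNA-binding protein of the FET family named here after its values were seen, was at 57.8, 48.3 and 52.6 RPKM with saline, 54.3, 56.9 and 55.2 RPKM with control ASO and 46.8, 43.4 and 40.7 RPKM with C9orf72 ASO, the lowest 3 of the 9 (log2 difference -0.35 relative to control ASO, limma, SE 0.07, adjusted p = 0.178).

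The list of nuclear RNA decay and RNase H had 25 tested genes, 0 past the threshold. In the same order, 1, 0, 2 and 1 had an unadjusted p under 0.05 (14.1%, 5.35%, 14% and 8.42% of all genes). The libraries of 3, 2, 1 and 0 did not overlap (22%, 10.3%, 18% and 3.19% of all genes). The list median for both ASO groups against saline was -0.0074 (all genes -0.023). In that last comparison Exosc9, a core subunit of the RNA exosome, was at 0.16 (SE 0.05, adjusted p = 0.569, limma), and Exosc4, another, at -0.21 (SE 0.10, adjusted p = 0.592, limma). Among 11 partners of Ku in end joining 0 passed, with 1, 0, 2 and 1 at an unadjusted p under 0.05 in the same order. The libraries of 3, 3, 2 and 0 did not overlap. The shares of all genes are those given for the list before. Prkdc, the catalytic subunit of the DNA-dependent kinase that Ku recruits, was at 3.24 ± 0.168, 3.13 ± 0.0639 and 3.21 ± 0.214 RPKM (SD, n = 3) with saline, the control ASO and the C9orf72 ASO. Xrcc4, the scaffold of the ligase that seals the ends, was at 2.50 to 2.69 RPKM with saline, 2.54 to 2.80 RPKM with control ASO and 2.96 to 3.17 RPKM with C9orf72 ASO, the highest 3 of the 9 (log2 difference 0.24 against saline, SE 0.07, adjusted p = 0.234, limma). Poll, a repair polymerase gene, was at -0.16 for both ASO groups against saline (SE 0.06, adjusted p = 0.575, limma).

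The remaining lists had 0 genes past the threshold as well. In the same order of comparisons an unadjusted p under 0.05 was found for 2, 2, 1 and 1 of the 13 La-related, Ro and polymerase III genes and for 2, 2, 0 and 2 of the 12 nucleolar genes. The counts were 2, 0, 1 and 1 for the 5 genes around Hmgb1 and 0, 1, 0 and 2 for the 14 around HSP90. Of all genes 14.1%, 5.35%, 14% and 8.42% had such a p. Libraries did not overlap for 4, 3, 2 and 1 of the 13 and for 2, 3, 0 and 0 of the 12. They did not overlap for 2, 1, 1 and 0 of the 5 and for 0, 3, 0 and 0 of the 14. The shares of all genes without overlap were 22%, 10.3%, 18% and 3.19%. The differences that follow are for both ASO groups against saline unless named otherwise. Among 13 La-related, Ro and polymerase III genes Polr3g, a polymerase III subunit gene, was higher in the 6 ASO libraries than in the 3 saline libraries (log2 difference 0.16, SE 0.06, adjusted p = 0.569, limma), and Larp4 was at 0.10 (SE 0.07, adjusted p = 0.677, limma). Among 12 nucleolar genes Nop58 was at 0.13 (SE 0.06, adjusted p = 0.592, limma). Of 5 tested paralogs, receptors and partners of Hmgb1, the chemokine gene Cxcl12 was at -0.38 (SE 0.12, adjusted p = 0.55, limma) and, for the C9orf72 ASO alone against saline, at -0.59 (SE 0.14, adjusted p = 0.151, limma). Hmgb3 was at 0.13 (SE 0.06, adjusted p = 0.592, limma) and Hmgb2 at 0.13 (SE 0.10, adjusted p = 0.712, limma). Of 14 paralogs and co-chaperones of HSP90, the heat shock factor gene Hsf1 was at -0.14 (SE 0.06, adjusted p = 0.588, limma) and the co-chaperone Unc45a at -0.16 (SE 0.07, adjusted p = 0.588, limma).

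The genes whose profile over the 9 libraries lay nearest to a DBHS gene, by the root mean square difference of mean-centred log2 values, were Ywhaz (0.031) and Zbtb26 (0.031) for Sfpq. They were Dis3l2 (0.021) and Thtpa (0.022) for Nono, and Ergic2 (0.027) and N6amt1 (0.028) for Pspc1. The median distance of all genes was 0.141, 0.115 and 0.126. The nearest genes lie below such a median by construction, as they were picked for a small distance. The distance of each DBHS gene from a flat profile was 0.099 for Sfpq, 0.054 for Nono and 0.063 for Pspc1.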

How the data were processed

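Strand-specific RNA libraries of 9 spinal cord samples in 3 groups of 3 were analysed from 1 table. The submitters' processing notes name cutadapt 1.2.1, GSNAP and the mm9 build, while counter and annotation are not given in those sources. The authors deposited RPKM values (unit read from the values, as the header names none), in which each value under 0.5 stands at 0.1 (5160 values). A symbol was found for 14321 of the 14831 gene IDs. Depth was read from genes of up to 350 bases, where 68.7% to 80% of low values fell within 0.1 of a whole read. Intervals cover the spread between libraries only.

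Differences were tested with limma 3.58.1 (mean trend, robust, R 4.3.3) on log2(RPKM + 0.1), which slightly understates the change of low genes, in 1 fit of the 9 libraries. The test covered the 14430 genes that reached 0.5 RPKM in 3 or more libraries, with Benjamini-Hochberg adjustment over all of them and a threshold of 0.05. The fit was tested on simulated data with independent noise in each gene. The share of small changes that it called there is not given here. Alternatives were other pseudocounts, filters, scalings, test settings and a length trend (GENCODE exon lengths, GRCm38), and each library left out. The genes, lists and rules were chosen with earlier results of these data known. The genes named from a list were those past the threshold or else the 2 with the smallest p for both ASO groups against saline, and a fixed few (Prkdc, Hsp90aa1, Ncl, Hmgb2, Xrn1, Rnaseh1, and Neat1, which the rule names but which was not analysed here). Taf15 and the pair of Ssb and Npm1 were picked out after their values were seen.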

Additional observations from a re-analysis of the deposited data

How the results depend on the processing

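In each alternative setting, 0 of the 10 genes passed the threshold in any comparison (710 values over 40 differences, at most 18 settings each). The sign turned in 46 of these values, in 14 of the 40 differences, all small. With median log ratio scaling the differences of both ASO groups from saline were 0.024 for Sfpq, 0.018 for Nono, 0.023 for Pspc1 and 0.021 for Xrcc6. They were 0.0029 for Sfpq, 0.0064 for Pspc1 and 0.025 for Xrcc6 with quantile normalization, and 0.028, 0.022, 0.023 and 0.025 for Sfpq, Nono, Pspc1 and Xrcc6 with the length trend removed. Median scaling also gave 0.0018 for Pspc1 in the control ASO against saline and 0.0035 for Nono in the C9orf72 ASO against saline. Without the length trend Nono was at 0.012 in the latter and Hmgb1 at 0.017 against the control ASO.

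Leaving out each library in turn gave, for both ASO groups against saline, -0.022 to 0.024 for Sfpq, -0.029 to 0.017 for Nono, -0.030 to 0.031 for Pspc1 and -0.053 to 0.028 for Xrcc6. Against the control ASO it gave -0.089 to 0.066 for Hmgb1, -0.011 to 0.093 for Pspc1 and -0.024 to 0.096 for Xrn2. For the C9orf72 ASO against saline the range was -0.035 to 0.049 for Hsp90ab1, -0.032 to 0.071 for Pspc1 and -0.0091 to 0.079 for Xrcc6. For the control ASO against saline it was -0.016 to 0.053 for Nono, -0.046 to 0.015 for Pspc1 and -0.0094 to 0.11 for Xrcc5. Sfpq against the control ASO stayed between -0.27 and -0.18 over all settings (adjusted p = 0.12 to 0.637, limma), and Ssb against saline between 0.17 and 0.26 (adjusted p = 0.149 to 0.509, limma). The ranges were wider, in proportion, for Ssb against the control ASO (0.070 to 0.14), for Npm1 against saline (0.12 to 0.23 for the C9orf72 ASO, 0.063 to 0.18 for the control ASO, 0.094 to 0.20 for both) and for Sfpq against saline (-0.13 to -0.065 for the C9orf72 ASO, 0.067 to 0.16 for the control ASO).

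The background counts moved. Against the control ASO 10 genes passed, 16 with no filter on low values, 19 with limma without trend and robust estimation, and 7 to 27 with a library left out (27 without C9orf72 ASO replicate 3). For the control ASO against saline 1 passed, 5 with no filter, 9 without trend and robust estimation, 2 with the length trend removed and 0 to 2 with a library left out (0 without any 1 of the control ASO replicates, 2 without saline replicate 1). For the C9orf72 ASO against saline 10 passed, 4 with the groups compared alone, 25 with the length trend removed and 4 to 54 with a library left out (54 without C9orf72 ASO replicate 3, 4 without its replicate 1 or 2 or saline replicate 2, and 16 without control ASO replicate 3). For both ASO groups against saline 2 passed, 18 without trend and robust estimation, 1 with median scaling, 5 with the length trend removed and 1 to 3 with a library left out (3 without saline replicate 1, 1 without any other). The causes were not tested. The r of Ssb and Npm1, in settings added after the data were seen, was 0.857 to 0.948 under 4 other settings and 0.928 to 0.966 with a library left out.

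No fit with only the groups compared exists for both ASO groups against saline, which uses all libraries. No paired analysis was possible because the labels give no replicate numbers. The replicate numbers used here follow the order of the sample titles within each group.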
